A study of Mus musculus with 10 samples.

Results

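The Notch signalling pathway was followed through 10 of its genes in embryonic mouse cortex in which 1 copy (controls) or both copies (mutants) of Rnu11 were floxed. Rnu11 is the gene of the U11 small nuclear RNA. U11 is part of the minor spliceosome, which removes a rare class of introns. The members were chosen by name, as 3 Notch receptors (Notch1, Notch2, Notch3), 3 ligands (Dll1, Dll3, Jag1), 2 fringe enzymes (Lfng, Mfng) and 2 Hes effectors (Hes1, Hes5). All 10 were found among the 38803 gene symbols listed for each library, and all 10 passed the filter on low values used for testing. Total RNA of the dorsal telencephalon was sequenced at embryonic day 12 from 5 controls of genotype Rnu11 WT/Flx and 5 mutants of genotype Rnu11 Flx/Flx. All 10 carried Emx1-Cre, a Cre that is active in the dividing cells of this region, on a mixed background of C57/Bl6 and 129 SvJ. The controls thus carried 1 floxed copy next to the Cre driver, and no library without a floxed copy was measured. The labels do not state that each library came from its own embryo, so the limma tests weigh the spread between these libraries only.

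In Notch signalling a ligand of the Delta or Jagged family on one cell binds a Notch receptor on its neighbour. The receptor is then cut by proteases, and its released intracellular part joins the DNA-binding protein Rbpj to switch on genes of the Hes and Hey families. In the embryonic cortex this exchange keeps radial glia, the progenitors that line the ventricle, from turning into neurons, while newborn neurons and intermediate progenitors carry the ligands. Fringe enzymes add a sugar to the receptor and so set which ligands it answers.

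Rbpj binds a short element with the letters GTGGGAA, and the Hes5 promoter is a textbook example of a gene controlled by it. The 250 bases before the start site of Hes5 and of Lfng are shown because they are the members whose window holds those letters. They are printed 5′ to 3′ from RefSeq on build GRCm38.p6, Hes5 on the plus strand at chr4:154960673-154960922 and Lfng on the plus strand at chr5:140607091-140607340. Start sites here are those of RefSeq. That of Lfng lies downstream of the GENCODE start given with its values, so the end of its window falls inside the GENCODE gene. Capitals mark the element, read as GTGGGAA or, on the other strand, as TTCCCAC.
Hes5: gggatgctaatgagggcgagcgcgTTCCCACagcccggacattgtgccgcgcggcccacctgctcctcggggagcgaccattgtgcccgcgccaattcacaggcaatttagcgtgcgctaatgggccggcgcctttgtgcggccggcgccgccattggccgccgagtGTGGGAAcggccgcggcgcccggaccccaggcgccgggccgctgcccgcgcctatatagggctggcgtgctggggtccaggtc
Lfng: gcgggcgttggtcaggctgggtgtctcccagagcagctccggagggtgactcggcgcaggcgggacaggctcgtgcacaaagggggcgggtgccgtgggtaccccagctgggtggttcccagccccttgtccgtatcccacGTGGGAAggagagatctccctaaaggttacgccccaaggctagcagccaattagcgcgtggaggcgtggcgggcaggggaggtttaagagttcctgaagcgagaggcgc
The Hes5 window holds 2 matches, 1 on each strand, from 226 to 220 and from 83 to 77 bases before the start. The Lfng window holds 1, from 109 to 103 bases before the start. Of the 8 members with an entry in the promoter table, 2 held the element on either strand, and 5.42% of all 32851 windows of that length did. The palindrome CACGTG, an E-box bound by basic helix-loop-helix proteins, was found in 1 of the 8, Lfng, where it shares letters with the element, and in 6.02% of all windows. Hes1 and Mfng had no entry. A match of letters is a description and does not show that Rbpj was bound.

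Levels are given in FPKM, a fragment count scaled by transcript length and by library size so that genes of different length can be set side by side. Long and short genes shifted against each other between the library sets described below, which limits such a comparison. In controls the members ran from 34.3 ± 5.61 FPKM for Dll1 down to 4.74 ± 2.21 FPKM for Dll3 (SD, n = 5). Dll1, Mfng and Notch1 lay close together at the top, at 34.3, 33.8 and 33.0 FPKM, and each pair of them overlapped. Hes5 followed at 22.4 FPKM. Hes1 at 13.0, Notch3 at 12.3 and Notch2 at 9.86 FPKM came next, then Lfng at 8.20, Jag1 at 7.56 and Dll3. No gene was separated from its neighbour in this order by a gap between the control libraries, though Hes5 exceeded Hes1 and Jag1 exceeded Dll3 in 10 of 10 libraries. The order by mean was the same in the 5 mutants, from Dll1 at 36.5 ± 3.73 FPKM to Dll3 at 4.84 ± 0.405 FPKM (SD, n = 5). Both groups mix the library sets described below, and the order differed within them. In controls of the first set Notch1 averaged 36.3 FPKM, above Dll1 at 32.9. Hes1 at 10.3 FPKM lay there below Notch3 at 14.0 and Notch2 at 10.4. In control 5, of the second set, Hes1 stood at 23.8 and Notch3 at 5.18 FPKM. Among all 13522 genes tested, the mean level of the members reached from the 32.8 percentile for Dll3 to the 84.1 percentile for Dll1.

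The libraries behind these values share some properties that touch every result below. Rnu11 itself stood at 1913 to 2817 FPKM in controls and at 473 to 1421 FPKM in mutants, without overlap, though with adjustment over all genes tested it did not pass (log2 difference -1.50, limma, adjusted p = 0.118). It passed with the library set, described next, as a term (limma, adjusted p = 0.00853). Control 5, mutant 4 and mutant 5 form a second library set that crosses genotype, with Rnu12 at 487 to 688 FPKM against 5.91 to 33.8 FPKM in the other 7 libraries, called the first set. The files hold no counts, and a rough depth, read off the smallest increments of FPKM, ran from 9910000 fragments in control 4 to 20780000 in control 2. At that depth the scarcest member, Dll3, rested on about 106 to 265 fragments per library and Notch1 on about 2772 to 7581. The tissue is bulk: 10 of 10 radial glial markers, such as Vim and Pax6, and 10 of 10 neuronal markers reached 1 FPKM in each library, as did 9 of 10 endothelial markers. Fewer cells of a type and less RNA per cell cannot be told apart in it.

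**Figure D1:**
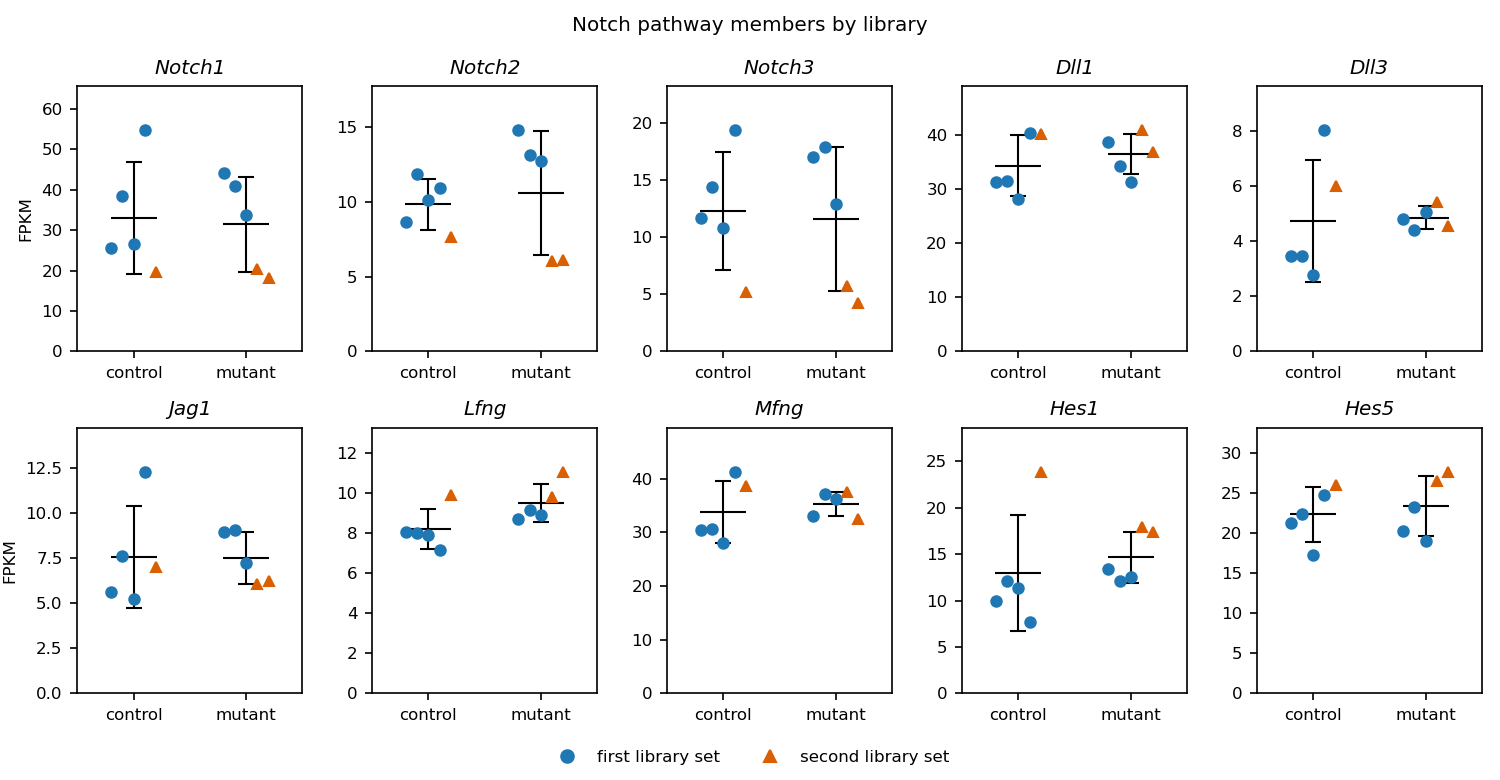
FPKM of each member in each library, controls on the left and mutants on the right of each panel, with the group mean and SD (n = 5) as black bars. Circles are the first library set and triangles the second. The triangles sit at 18.1 to 20.4 FPKM for Notch1, below each circle, and at 17.4 to 23.8 FPKM for Hes1, above each circle.

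Notch1 was the most abundant receptor and did not pass the test between genotypes. The gene (ENSMUSG00000026923.15, chr2:26457903-26516663, minus strand, GENCODE M21 on GRCm38, as for all members) stood at 25.6, 38.4, 26.5, 54.7 and 19.8 FPKM in controls 1 to 5. It stood at 44.2, 40.9, 33.8, 20.4 and 18.1 FPKM in mutants 1 to 5. The groups overlapped over nearly their whole range, with the highest library a control and the lowest a mutant. The mean was 33.0 ± 13.9 FPKM in the controls and 31.5 ± 11.8 FPKM in the mutants (SD, n = 5), a log2 difference of -0.06 with a 95% interval from -0.75 to 0.62 (limma, adjusted p = 0.963).

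Notch2, a receptor of progenitors and of many other tissues (ENSMUSG00000027878.11, chr3:98013527-98150361, plus strand), was lower in level. Its controls stood at 8.66, 11.9, 10.1, 10.9 and 7.65 FPKM and its mutants at 14.8, 13.1, 12.7, 6.08 and 6.14 FPKM. Mutants 1 to 3 lay above all 5 controls and mutants 4 and 5 below all 5, so the mutant libraries bracketed the controls. The log2 difference was 0.02, with an interval from -0.50 to 0.54 (limma, adjusted p = 0.985).

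Notch3, a receptor known from progenitors and from the mural cells of blood vessels (ENSMUSG00000038146.8, chr17:32120820-32166852, minus strand), had the widest spread of the 10 members. Controls stood at 11.7, 14.4, 10.8, 19.3 and 5.18 FPKM, and mutants at 17.0, 17.9, 12.9, 5.71 and 4.26 FPKM. Each group held high libraries and low ones, the low ones being control 5, mutant 4 and mutant 5. The log2 difference of -0.16 had an interval from -1.11 to 0.80 (limma, adjusted p = 0.933). Taken as a share of the summed FPKM of the 3 receptors, Notch1 made up 59.2 ± 3.59% in controls and 59.7 ± 3.41% in mutants, Notch2 19.0 ± 3.99% and 19.9 ± 1.48%, and Notch3 21.8 ± 3.52% and 20.3 ± 3.95% (SD, n = 5).

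Dll1 encodes the Delta ligand that activates Notch in the cortex (ENSMUSG00000014773.13, chr17:15367354-15376872, minus strand). Its controls stood at 31.3, 31.4, 28.3, 40.4 and 40.3 FPKM in controls and at 38.7, 34.4, 31.4, 40.9 and 37.0 FPKM in mutants. The ranges overlapped almost fully, and 1 mutant lay above the highest control. The log2 difference was 0.09, with an interval from -0.18 to 0.36 (limma, adjusted p = 0.841), one of the narrower intervals among the members.

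Dll3, a divergent Delta that acts inside the ligand-bearing cell and does not activate receptors on neighbours (ENSMUSG00000003436.11, chr7:28293553-28302238, minus strand), was the scarcest member. Controls stood at 3.44, 3.45, 2.77, 8.01 and 6.0 FPKM and mutants at 4.80, 4.41, 5.04, 5.43 and 4.55 FPKM. The mutants clustered inside the range of the controls, which split into 3 low and 2 high libraries. The log2 difference was 0.10, with an interval from -0.36 to 0.56 (limma, adjusted p = 0.901).

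Jag1, a ligand of the Jagged family (ENSMUSG00000027276.7, chr2:137081456-137116644, minus strand), stood at 5.61, 7.63, 5.26, 12.3 and 7.03 FPKM in controls and at 8.96, 9.07, 7.25, 6.05 and 6.23 FPKM in mutants. All 5 mutants fell within the range of the controls. The log2 difference was 0.03, with an interval from -0.40 to 0.46 (limma, adjusted p = 0.975). Dll1 made up 74.3 ± 4.61% of the summed ligand FPKM in controls and 74.6 ± 3.01% in mutants, Jag1 15.9 ± 3.01% and 15.4 ± 3.05%, and Dll3 9.75 ± 2.39% and 9.96 ± 1.01% (SD, n = 5).

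Of the fringe enzymes, which extend the sugar on the receptor, Mfng was the more abundant, at 80.2 ± 2.84% of their summed FPKM in the controls and 78.7 ± 2.33% in the mutants (SD, n = 5). Mfng (ENSMUSG00000018169.12, chr15:78755882-78773475, minus strand) stood at 30.4, 30.6, 28.0, 41.2 and 38.6 FPKM in controls and at 33.2, 37.1, 36.2, 37.5 and 32.5 FPKM in mutants. All 5 mutants again lay inside the control range (log2 difference 0.08, interval from -0.19 to 0.34, limma, adjusted p = 0.864).

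Lfng (ENSMUSG00000029570.5, chr5:140607320-140615545, plus strand) had the smallest p of the 10 members and still missed the threshold. Controls stood at 8.04, 7.98, 7.91, 7.17 and 9.89 FPKM and mutants at 8.67, 9.17, 8.90, 9.79 and 11 FPKM. Control 5 lay above 4 of the 5 mutants, and the other 4 controls lay below all 5. The mean was 8.20 ± 1.01 FPKM in the controls and 9.51 ± 0.944 FPKM in the mutants (SD, n = 5), a log2 difference of 0.19 with an interval from -0.04 to 0.43 (limma, adjusted p = 0.624).

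Hes1 and Hes5 encode repressors of proneural genes and are the main readouts of Notch activity in radial glia. Hes1 (ENSMUSG00000022528.8, chr16:30064384-30067796, plus strand) stood at 9.92, 12.1, 11.4, 7.71 and 23.8 FPKM in controls and at 13.4, 12.1, 12.5, 17.9 and 17.4 FPKM in mutants. Control 5 was the highest of all 10 libraries and the other 4 controls lay below all 5 mutants, with control 2 and mutant 2 nearly level. The mean was 13.0 ± 6.29 FPKM in the controls and 14.7 ± 2.77 FPKM in the mutants (SD, n = 5), a log2 difference of 0.24 with an interval from -0.28 to 0.77 (limma, adjusted p = 0.784).

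Hes5 (ENSMUSG00000048001.7, chr4:154960923-154962371, plus strand) stood at 21.2, 22.4, 17.3, 24.8 and 26.0 FPKM in controls and at 20.3, 23.3, 19.1, 26.6 and 27.6 FPKM in mutants. The lowest library was a control and the highest a mutant, with the rest interleaved. The log2 difference was 0.06, with an interval from -0.24 to 0.36 (limma, adjusted p = 0.915). Hes5 differed by less than the spread between libraries.

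Across the members, 0 of 10 passed the threshold between genotypes, where 21 of all 13522 genes tested did (0.155%, limma). At an unadjusted p under 0.05 it was again 0 of 10, beside 8.76% of all genes. The groups were free of overlap for 0 of 10 members and for 1.9% of all genes. The median log2 difference of the members was 0.07 and that of all genes tested 0.11, and 2 of 10 members lay above the latter. Scaling the libraries to a common median ratio moved the median of all genes from 0.1058 to 0.0016 and quantile normalization moved it to -0.0051. With that shift the members above 0 went from 8 to 3 under either scaling, while those above the median of all genes went from 2 to 3.

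**Figure D2:**
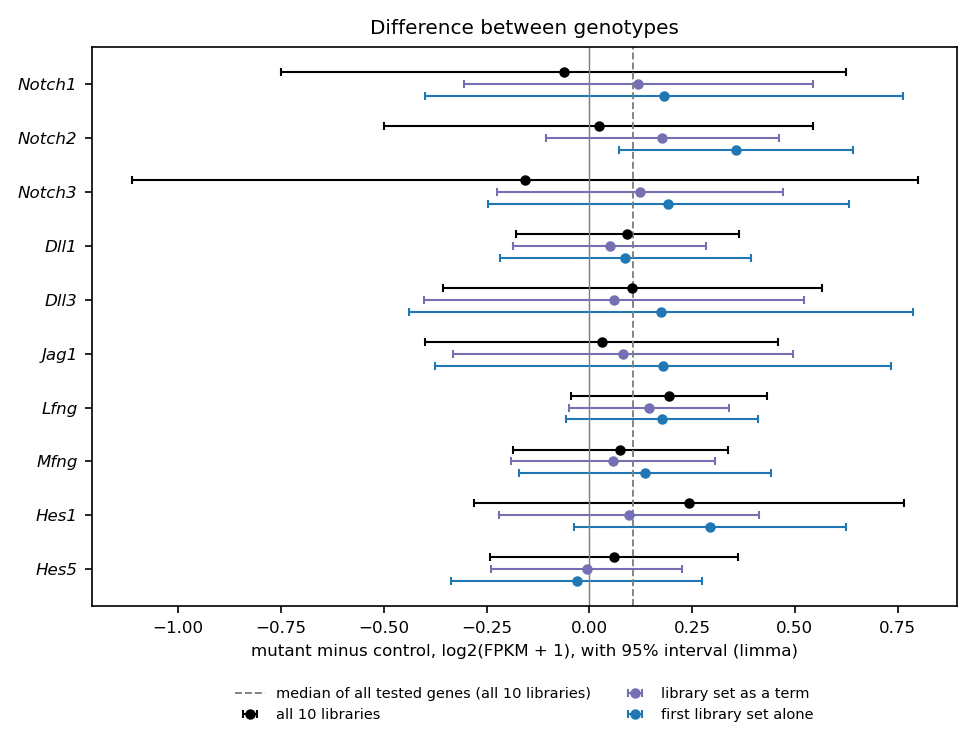
Mutant minus control on the log2(FPKM + 1) scale for each member, with 95% intervals from limma, in all 10 libraries (black), with the library set as a term (purple) and in the first library set alone (blue). The interval of Notch3 runs from -1.11 to 0.80 in all libraries and from -0.23 to 0.47 with the set as a term.

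The first library set holds 4 controls and 3 mutants. There Notch2 averaged 10.4 ± 1.37 FPKM in the controls and 13.6 ± 1.10 FPKM in the mutants, Hes1 10.3 ± 1.93 and 12.7 ± 0.637 FPKM, and Lfng 7.77 ± 0.409 and 8.91 ± 0.247 FPKM (SD, n = 4 and n = 3). These 3 of 10 members were higher in mutants without overlap, where 18.2% of all genes had no overlap in that set and 16.7% were higher without overlap. After scaling to the median ratio it was 0 of 10 members, and of all genes 6.67% were then higher and 8.36% lower without overlap. None of the 10 passed in that set (limma), where 0.747% of all genes did. At an unadjusted p under 0.05 it was 1 of 10, beside 18.9% of all genes. The smallest p was that of Notch2 (log2 difference 0.36, limma, adjusted p = 0.194). In the second set the single control stood at 7.65 FPKM for Notch2, 23.8 for Hes1 and 9.89 for Lfng, and the 2 mutants averaged 6.11, 17.6 and 10.4 FPKM. The difference between sets in the effect of genotype did not pass for any member (limma, interaction, adjusted p = 0.548 for both Hes1 and Notch2). With control 5 left out, Hes1 and Lfng, 2 of 10 members, were higher in mutants without overlap, where 9.31% of all genes had no overlap in either direction. Their log2 differences were then 0.47 and 0.26 (limma, adjusted p = 0.141 and 0.179), and these 2 had an unadjusted p under 0.05, as did 20.7% of all genes. Without control 5 the second set is left among the mutants only, so that set and genotype are mixed. With control 5 kept and the set as a term, Hes1 lay at 0.10 and Lfng at 0.15 (limma, adjusted p = 0.814 and 0.519).

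Between the library sets, the 3 receptors stood lower in the second set and both Hes effectors higher. Notch1 averaged 37.7 ± 10.2 FPKM in the first set and 19.4 ± 1.16 FPKM in the second, Notch2 11.8 ± 2.04 and 6.62 ± 0.886 FPKM, and Notch3 14.8 ± 3.28 and 5.05 ± 0.734 FPKM (SD, n = 7 and n = 3). Hes1 ran the other way, at 11.3 ± 1.91 FPKM in the first set and 19.7 ± 3.58 FPKM in the second. The sets did not overlap for any of these 4 genes, and this held after scaling to the median ratio and after quantile normalization. Hes5, at 17.3 to 24.8 and 26.0 to 27.6 FPKM, and Lfng, at 7.17 to 9.17 and 9.79 to 11 FPKM, were also higher in the second set without overlap, which was lost under both scalings. Dll1, Dll3, Jag1 and Mfng overlapped between the sets. Unscaled, the sets lay apart for 6 of 10 members and for 21.8% of all genes tested. Of all genes, 6.28% were lower and 15.5% higher in the second set without overlap, or 11% and 13% after scaling to the median ratio. The sets were drawn from Rnu12 with the data in view and are not groups of the study, so these values carry no test.

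Transcript length and base composition moved with this split. The longest coding transcripts of Notch1, Notch2 and Notch3 have 9488, 10500 and 8016 bases in GENCODE M21, with a GC content of 57.1%, 53.6% and 59.6%. Those of Hes1, Hes5 and Lfng have 1468, 1273 and 2305 bases. Among 59 tested genes with over 8000 bases and a GC content over 55%, which include Notch1 and Notch3, 98.3% lay lower in the second set, with a median log2 difference of -0.70. Notch1 lay at -0.88 and Notch3 at -1.37. Among 129 genes of that length with a GC content over 50 and up to 55%, which include Notch2, the median was -0.30 and Notch2 lay at -0.73. Genes of up to 4000 bases had a median of 0.06 in the class of Dll1 and Hes1 (over 50 and up to 55% GC) and -0.06 in that of Dll3, Hes5, Lfng and Mfng (over 55%), where Hes1 lay at 0.76 and Hes5 at 0.33. The part of length and GC content in the receptor values was not tested. No marker list was free of overlap between the sets in its summed level, though single markers were, as were 21.8% of all genes tested. Of radial glial markers, Pax6 (21.7 to 31.0 FPKM, then 32.9 to 35.7 in the second set), Prom1 and Emx2 were higher there without overlap. Sox9 (6.20 to 9.25, then 4.34 to 5.61 FPKM) was lower, and the other radial glial markers overlapped. In other lists Elavl4 and Hba-x were higher and Cldn5, Bcl11b, Dcx, Trp73 and Csf1r lower. Their part in the member values was not tested. Endothelial markers summed to 32.3 to 65.0 FPKM in the first set and 39.4 to 45 in the second, and markers of mural cells and mesenchyme, a cell class that also carries Notch3, to 32.1 to 92.4 and 40.3 to 50.2 FPKM. Within that last list, Col1a1 stood at 3.44 to 10.8 FPKM in the first set and 1.46 to 2.00 in the second. Col1a2 stood at 8.45 to 24.9 and 6.47 to 7.35 FPKM, also without overlap. The other genes of that list overlapped between the sets, with Lum the most abundant.

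**Figure D3:**
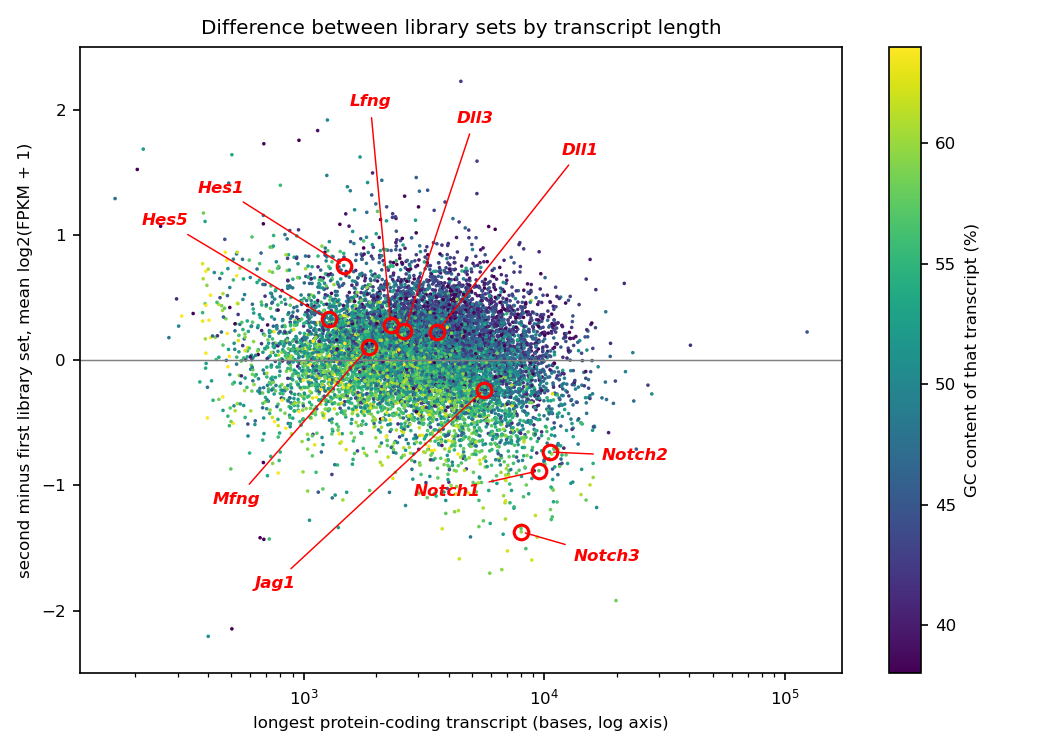
Second minus first library set in mean log2(FPKM + 1) against the length of the longest coding transcript (log axis) for tested genes with a coding model, coloured by GC content, with the 10 members ringed in red. The 3 receptors lie at -0.73 to -1.37 among long transcripts, and Hes1 at 0.76 among short ones.

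The genes whose levels followed the 2 most variable members most closely were looked up across the 10 libraries. Likeness was measured as the root mean square difference between their deviations from their own mean log2 level, over 8923 other genes with a mean of at least 5 FPKM. Nearest to Notch3 were Grik5, a kainate receptor subunit, at 0.09, Gpc4, a glypican, at 0.11, Pom121, a nuclear pore protein, at 0.12, Ptpn23 at 0.13 and Tnrc18 at 0.13, where the median gene lay at 0.73. Nearest to Notch1 were Ints1, a subunit of the Integrator complex, at 0.08, Bcl9, a cofactor of Wnt signalling, at 0.09, Tead1, a transcription factor of the Hippo pathway, at 0.11, Cbl, a ubiquitin ligase, at 0.11 and St8sia2, an enzyme of polysialic acid synthesis, at 0.11, with a median of 0.56. Since Notch1 and Notch3 are lower in the second set without overlap, genes chosen for following them share that split, and it is no separate result.

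Control 4 was an extreme library for several members. It held the highest level of all 10 libraries for Notch1, Notch3, Dll3, Jag1 and Mfng and the lowest for Hes1 and Lfng, unscaled and under both scalings. Unscaled, it was thus the highest for 5 and the lowest for 2 of 10 members, where it was the highest for 19.7% and the lowest for 8.64% of all genes tested. Dll1, Notch2 and Hes5 lay inside the range of the other libraries. Among the 60 tested genes of the wider pathway it was the highest for 18 and the lowest for 4, and Rbpj at 12.7, Nrarp at 11.7 and Hey1 at 28.3 FPKM lay mid-range. It had the lowest Neurog2, the proneural factor of dorsal progenitors, at 12.2 FPKM against 18.2 to 27.6 FPKM elsewhere. Hey2, a Notch target, stood at 1.86 FPKM in control 4 and at 3.95 to 10.6 FPKM in the other libraries. Markers of the ventral telencephalon, which adjoins the dissected tissue, summed to 69.1 FPKM in control 4, with Dlx1 at 17.8 and Isl1 at 14.9 FPKM, and to 1.85 to 22.6 FPKM in the other 9 libraries. Their part in the levels of control 4 was not tested. Between genotypes no marker list was free of overlap in its summed level: microglia and macrophage markers summed to 16.5 to 43.0 FPKM in the controls and 26.1 to 83.7 FPKM in the mutants, endothelial markers to 32.3 to 52.3 and 39.4 to 65.0 FPKM, and neuronal markers to 317 to 476 and 388 to 599 FPKM. No marker was at 0 in all libraries, and Gsx1 of the ventral list and Cspg4 of the mural list stayed below 1 FPKM throughout. Without control 4 the log2 difference was 0.14 for Notch1, 0.02 for Notch3, 0.29 for Dll3, 0.20 for Jag1 and 0.10 for Hes1, and 0 of 10 members passed (limma, adjusted p from 0.511 to 0.985).

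The rest of the pathway was read from 70 further genes listed by role, of which 60 were tested. None passed between genotypes (limma), and 3 had an unadjusted p under 0.05, beside the 8.76% of all genes given above. Their median log2 difference was 0.10 and 29 of 60 lay above the median of all genes. The 3 genes were Fbxw7, Fabp7 and Neurod1.

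Among the paralogs of the members, Notch4 and Dll4, known from blood vessels, were scarce. Notch4 averaged 1.63 ± 0.339 FPKM in the controls and 1.5 ± 0.638 FPKM in the mutants, and Dll4, which did not reach the filter, 0.407 ± 0.0950 and 0.532 ± 0.189 FPKM (SD, n = 5). Jag2 stood at 1.70 and 1.95 FPKM (log2 difference 0.11) and Rfng, the remaining fringe enzyme, at 5.06 and 5.12 FPKM (0.04). Dner, a neuronal protein related to Delta, had the smallest p of this list, at 7.60 and 9.76 FPKM (0.34, limma, adjusted p = 0.766).

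Genes that act on ligand uptake and receptor turnover gave 0 calls among 10 tested. Those with the smallest p were Dtx2 and Dtx3, of the Deltex family of ubiquitin ligases, at log2 differences of 0.22 and 0.23 (limma, adjusted p = 0.573 and 0.639). Of 12 tested genes for receptor glycosylation and cleavage 0 passed, with Aph1c, part of the gamma-secretase that frees the intracellular domain, at a log2 difference of 0.73 (limma, adjusted p = 0.594). Aph1c was listed at 0.191 to 4.09 FPKM in the controls and 1.44 to 3.62 FPKM in the mutants, and its near copy Aph1b may share its fragments.

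In the nuclear complex, Rbpj, the DNA-binding partner of the Notch intracellular domain, stood at 12.0 ± 2.28 FPKM in the controls and 13.1 ± 0.516 FPKM in the mutants (SD, n = 5, log2 difference 0.14, limma, adjusted p = 0.746). Fbxw7, the ubiquitin ligase that marks the intracellular domain for degradation, stood at 6.43 ± 1.01 and 8.53 ± 0.639 FPKM. It had the smallest p of the pathway, with control 5 at 8.12 FPKM inside the mutant range of 7.58 to 9.16 FPKM (log2 difference 0.37, interval from 0.12 to 0.61, limma, adjusted p = 0.357). Of 10 genes of this list and 12 co-repressors, 0 passed. Hdac2, a histone deacetylase, and Ncor1, a co-repressor, lay at 0.31 and 0.24.

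The list of other targets and related genes gave 0 calls among 6 tested. Hey1 stood at 34.0 ± 9.71 FPKM in the controls and 30.2 ± 5.70 FPKM in the mutants, Hey2 at 6.29 ± 3.09 and 6.12 ± 1.64 FPKM, and Nrarp, a feedback inhibitor of Notch, at 11 ± 1.78 and 12.6 ± 1.15 FPKM (SD, n = 5). Heyl was below the filter at 0.854 and 0.761 FPKM. Hes6, which counters Hes1, stood at 60.8 ± 9.81 and 56.7 ± 4.93 FPKM. Fabp7, a fatty acid binding protein of radial glia, stood at 179 ± 33.2 and 226 ± 26.9 FPKM (log2 difference 0.35, limma, adjusted p = 0.534).

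Of the proneural factors, which Hes proteins repress and which in turn switch on Dll1, 0 of 5 tested passed. Neurod1, expressed in intermediate progenitors and newborn neurons, stood at 8.56 ± 3.17 FPKM in the controls and 12.0 ± 1.63 FPKM in the mutants (SD, n = 5, log2 difference 0.49, limma, adjusted p = 0.482). Control 5 held 14.2 FPKM, above all 5 mutants at 9.74 to 13.5, and the other 4 controls held 6.70 to 7.93 FPKM. Without control 5 Neurod1 rose by 0.67 and was called (limma, adjusted p = 0.036), as 80 of 13377 genes were. Leaving out control 5 leaves the second library set among the mutants only, so that set and genotype are mixed. With control 5 kept and the set as a term, Neurod1 lay at 0.39 (limma, adjusted p = 0.249). With all libraries and no set term, Neurod4 lay at 0.17 (limma, adjusted p = 0.687). Intermediate progenitor markers summed to 79.2 to 113 FPKM in the controls and 109 to 117 FPKM in the mutants, and their part in the level of Neurod1 was not tested. Elavl4 and Btg2 were the most abundant of that list, and Eomes stood at 7.81 to 14.3 and 10.6 to 15.4 FPKM. Mfap4, at 5.05 to 6.36 and 6.76 to 9.41 FPKM, had no overlap between genotypes, as had 1.9% of all genes. The other genes of the list overlapped.

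**Figure D4:**
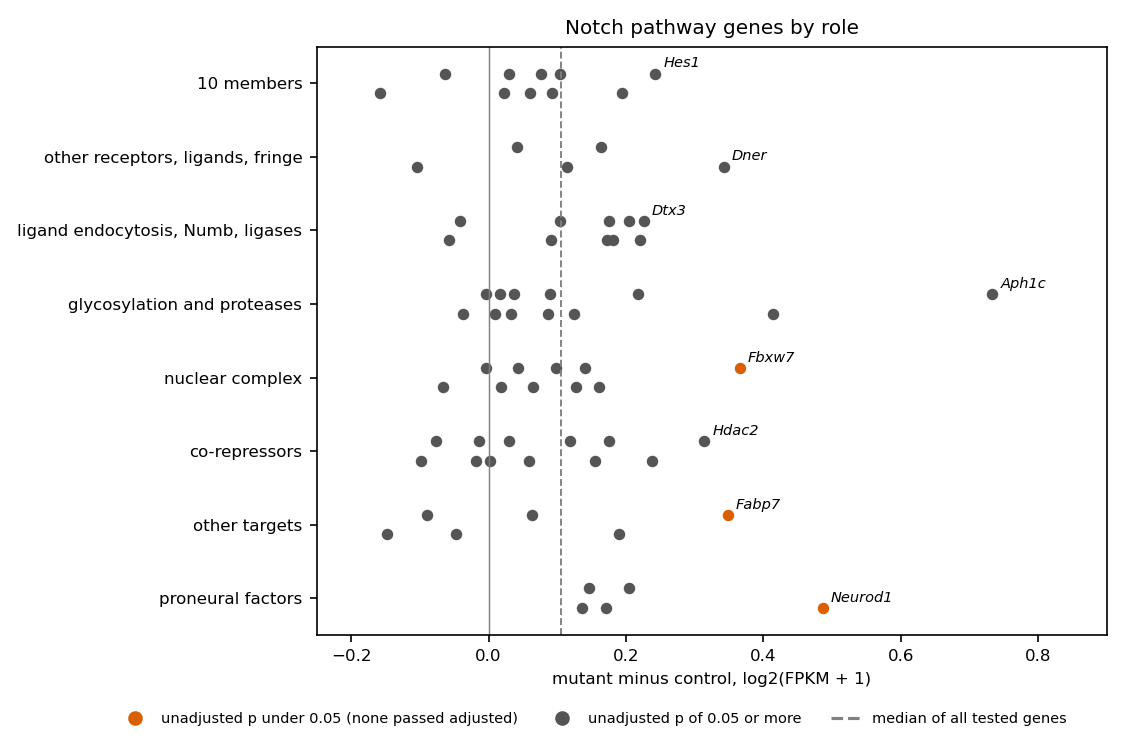
Mutant minus control on the log2(FPKM + 1) scale for the 10 members and for 60 further tested genes by role, 1 point per gene, with the median of all tested genes at 0.11 as a dashed line. None passed the adjusted threshold, and the 3 genes with an unadjusted p under 0.05, in orange, are Fbxw7, Fabp7 and Neurod1.

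Some members share their locus with other genes. Notch1, Notch3, Dll1 and Hes5 overlap annotated genes on the opposite strand in GENCODE M21, and the sources used here do not state the strand setting of the quantification. The overlapping genes of the opposite strand were listed at up to 2.86 FPKM (Gm13568, in Notch1), 0.431 FPKM (Gm17276, in Notch3), 0.632 FPKM (A930024N18Rik, in Dll1) and 1.65 FPKM (Gm20421, in Hes5). On the same strand, Notch2 overlaps Gm42819 and Gm42820, and Notch1 overlaps Mir6996. Their values are not reported here.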

How the data were processed

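The authors deposited one table of FPKM per library, of 5 controls and 5 mutants. Per the submitters' processing notes, reads were aligned with HISAT2 to GRCm38, while for the FPKM the sources used here name no program, annotation or strand setting. Per the labels' protocols, libraries were stranded total RNA with ribosomal RNA depleted. FPKM holds no counts, so depth was only roughly estimated and no count test was used. The 13522 genes that reached 1 FPKM in 5 or more libraries entered limma 3.58.1 (R 4.3.3) as log2(FPKM + 1) (intensity trend, robust, two-sided, Benjamini-Hochberg over all of them, threshold 0.05). Fold changes on this scale understate those of low genes. On simulated data with the spread of these libraries, the test recovered 32.8% of changes of 1.5-fold, 88.7% at 2-fold and 95.6% at 4-fold, and made 8 false calls. The changed genes were drawn from those with a mean above 2 on that log2 scale. Their noise was independent between genes, without the split into library sets. These rates are averages over such genes and do not give that of Notch1 or Notch3, whose standard errors were 0.31 and 0.43. The library sets were split at 100 FPKM of Rnu12. Named genes were the members, Rnu11, fixed paralogs, targets and related genes, and in each role list those past the threshold or, with none, those with the smallest p. Some genes of these lists are counted but not reported here by name. The members and lists were chosen with earlier results of these data known. Tables used Python 3.11.15 and pandas 2.3.3, and figures matplotlib 3.10.9. Alternatives were other pseudocounts, filters, scalings and variance models, the library set, the replicate number and each library left out.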

Additional observations from a re-analysis of the deposited data

Results flagged for a closer look

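Hes1 in control 5, at 23.8 FPKM, was the highest of the 5 controls by a gap to the next, control 2 at 12.1 FPKM, that made up a share of 0.728 of the whole range of the group, above the critical value of Dixon's test for 5 samples. Chance flags about 1 in 20 groups, and 20 groups were looked at here, the 10 members in each genotype. Control 5 is the single control of the second library set. Hes1 ran from 17.4 to 23.8 FPKM in that set and from 7.71 to 13.4 FPKM in the first. Dixon's test takes the 5 controls as 1 group and so does not account for this split.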

How the results depend on the processing

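None of the 10 members passed under any of the 20 alternatives in which it was tested, where the lowest adjusted p was 0.141 (limma), for Hes1 without control 5. With the filter of at least 5 FPKM in at least 5 libraries 9 members were tested, and Dll3 was not. Of all genes, 21 were called (12 higher, 9 lower), 2 with no filter on low values, 35 with quantile normalization (13 higher, 22 lower), 30 with median ratio scaling (11 higher, 19 lower), 11 with neither trend nor robust fit, 74 with the library set as a term, 101 in the first set alone, and 2 to 80 with 1 library left out: leaving out control 1, control 2, mutant 2 or mutant 3 gave 2, control 3 gave 4, mutant 1 gave 6, mutant 5 gave 8, control 4 gave 14 and control 5 gave 80. The replicate numbers did not pair the samples (correlation of same-numbered libraries from -0.107 to 0.521, with 2 of 5 controls correlating best with their own number), and with the replicate block 14 genes and 0 members were called. Members without overlap numbered 0, 3 in the first set and 0 to 2 with a library left out, and calls in the wider pathway 0, or 0 to 1 (Neurod1, without control 5, whose value ranged from 0.42 to 0.67 over the libraries left out). The genotype by set term called 0 genes, 183 with no filter, 1 with median ratio scaling and 1 with quantile normalization. Signs turned as follows, where the 2 scalings shift the median of all genes from 0.1058 to 0.0016 (median ratio) and -0.0051 (quantile). With the set as a term Notch1 lay at 0.12, Notch3 at 0.12, Hes5 at -0.0061 and Hey2 at -0.056. In the first set alone Notch1 lay at 0.18, Notch3 at 0.19 and Hes5 at -0.031. With median ratio scaling Notch2 lay at -0.091, Dll1 at -0.027, Jag1 at -0.077, Hes5 at -0.058, Mfng at -0.044, Rfng at -0.060 and Hey2 at -0.045. With quantile normalization Notch2 lay at -0.076, Dll3 at -0.019, Jag1 at -0.086, Hes5 at -0.038, Mfng at -0.013, Jag2 at -0.014, Rfng at -0.075 and Hey2 at -0.077. With 1 library left out Notch1 ranged from -0.22 to 0.14, Notch2 from -0.11 to 0.18, Notch3 from -0.41 to 0.11, Dll3 from -0.027 to 0.29, Jag1 from -0.070 to 0.20, Hes5 from -0.025 to 0.13, Notch4 from -0.21 to 0.0068, Rfng from -0.12 to 0.17, Hey1 from -0.24 to 0.00087, Hey2 from -0.24 to 0.26 and Hes6 from -0.13 to 0.0026. The cause of these turns was not tested. Rnu11 passed with quantile normalization (limma, adjusted p = 0.0435), with the set as a term (adjusted p = 0.00853) and in the first set alone (adjusted p = 0.00185).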
